A study of Homo sapiens with 4 samples.

Results

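The genes described are the HOX genes of the 4 human clusters together with the MEIS and PBX genes, whose products bind DNA beside HOX proteins. They were taken by symbol from the deposited gene table, as every HOXA, HOXB, HOXC or HOXD gene with a number and every numbered MEIS and PBX gene. This gave 46 of 23615 gene symbols, of which 39 are HOX genes, 3 are MEIS genes and 4 are PBX genes. The study compared cardiomyocytes that RUES2 human embryonic stem cells gave by 2 routes, and RNA was sequenced at day 14 from 2 cultures per route. Every culture was induced under the condition called A100/B5, in which activin A at 100 ng/ml was followed a day later by BMP4 at 5 ng/ml. CHIR-99021, which activates Wnt/β-catenin signaling, was given before the induction and again at 1 µM in the step with BMP4. The A100/B5 CPC group went through cardiac progenitor cells. The cardiac protocol adds the Wnt/β-catenin inhibitor XAV-939 (XAV) at 1 µM on day 3 for part of the experiments, and whether these CPC cultures were among them is not given in the sources used here. The A100/B5 ECsXAV group went through endothelial cells in medium with 200 ng/ml VEGF, 10 ng/ml BMP4 and 5 ng/ml bFGF from day 2, and received 2 µM XAV from day 5. Cells were not sorted before sequencing, so each library holds every cell type of its culture, and fewer cells of a type cannot be told apart from less RNA per cell. All libraries come from a single stem cell line. The sample names of the groups carry different prefixes, whose meaning the labels do not give. Anything that the prefix stands for cannot be told apart from the route.

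HOX genes encode homeodomain transcription factors that lie in 4 clusters, and genes at the 3′ end of a cluster are expressed earlier and further anterior in the embryo than genes at its 5′ end. Genes of the same paralog number in different clusters descend from a common ancestor. MEIS and PBX proteins belong to the TALE class of homeodomain proteins, form complexes with HOX proteins on DNA and sharpen their choice of site. In the heart field, anterior HOX genes mark second heart field progenitors that contribute to the outflow and inflow poles, and they respond to retinoic acid.

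The 3 sequences here are upstream stretches that hold a motif of the complex. Those of MEIS2 and PBX3 are shown because both genes were higher in CPC, though MEIS2 stayed under a 2-fold difference. HOXB1 is shown because it is the neighbour of HOXB2, HOXB3 and HOXB4 in the cluster. RefSeq (GRCh38.p14) gave windows for 26 of the 46 genes, each from -250 to a short way past an annotated start. Each printed stretch was matched once in GRCh37. The whole windows were searched on both strands for TGATNNAT, a PBX-HOX motif, and TGACAG, a MEIS motif. A counted match can therefore lie past the start. No match of one motif overlapped a match of the other in the printed stretches. Capitals mark the motif, and each line reads 5′ to 3′ in the direction of the gene. For HOXB1 (chr17:46608374-46608623, minus strand, GRCh37) the whole stretch from -250 to -1 is shown, because no annotated exon lies in it. The MEIS2 stretch (chr15:37390943-37390972, minus strand) and the PBX3 stretch (chr9:128510431-128510460, plus strand) are limited to 30 bases because exons of other transcripts of those genes lie in their windows. A further MEIS2 window held neither motif and is not shown.
HOXB1: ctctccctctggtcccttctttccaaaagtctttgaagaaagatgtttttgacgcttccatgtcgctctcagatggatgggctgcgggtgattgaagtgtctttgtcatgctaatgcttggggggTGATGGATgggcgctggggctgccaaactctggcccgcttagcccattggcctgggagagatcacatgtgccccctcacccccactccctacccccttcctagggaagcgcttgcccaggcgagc
MEIS2: atttcgcctttTGATTTATtggatcctcag
PBX3: actttgccgagCTGTCAccctcccgctggc
Counted from the annotated start, the HOXB1 motif began at -125, the MEIS2 motif at -64 and the PBX3 motif, on the opposite strand, at -20. TGATNNAT was found in 7.398% of the 35116 windows of all genes and in 4 of the 35 windows of the genes described here, those of HOXA2, HOXB1, HOXD11 and MEIS2. TGACAG was found in 15.76% of all windows and in 5 of these 35, those of HOXA2, HOXA4, HOXA13, HOXD4 and PBX3. HOXB2, HOXB3 and HOXB4, which carry the HOX result, had no entry. A match says that these letters lie in the window and nothing of binding.

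Expression was given as FPKM, a fragment count divided by the exon length and by the mapped fragments of the library, which can be compared between genes. The absolute depth of the libraries is unknown. The steps between low values gave ECsXAV replicate 2 a depth of 50.1% of that of its partner, replicate 1, and the CPC libraries 86.9% and 79.8% of it. Between 12070 and 12240 genes reached 1 FPKM in a library. Cardiomyocyte markers were high in all libraries, with TNNT2, cardiac troponin T, at 2309 to 2988 FPKM.

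The HOX expression of these cultures came from the anterior part of a single cluster. HOXB2, HOXB3 and HOXB4 were the only HOX genes to reach 1 FPKM in any library, and HOXB2 and HOXB3 reached it in all 4. No HOXA, HOXC or HOXD gene did, out of 11, 9 and 9 genes. The HOXB cluster held 95.5% and 96.7% of the summed HOX FPKM in the ECsXAV libraries, and 99.7% in each CPC library. The 3 genes alone held 92.0% and 95.7% in ECsXAV, and 98.2% and 98.4% in CPC. Of the 46 genes, 9 reached 1 FPKM in at least 1 library and 8 in all of them, and 15 HOX genes were listed at 0 in every library, counting HOXC5, whose 1 other value is 4.43e-35 FPKM.

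**Figure D1:**
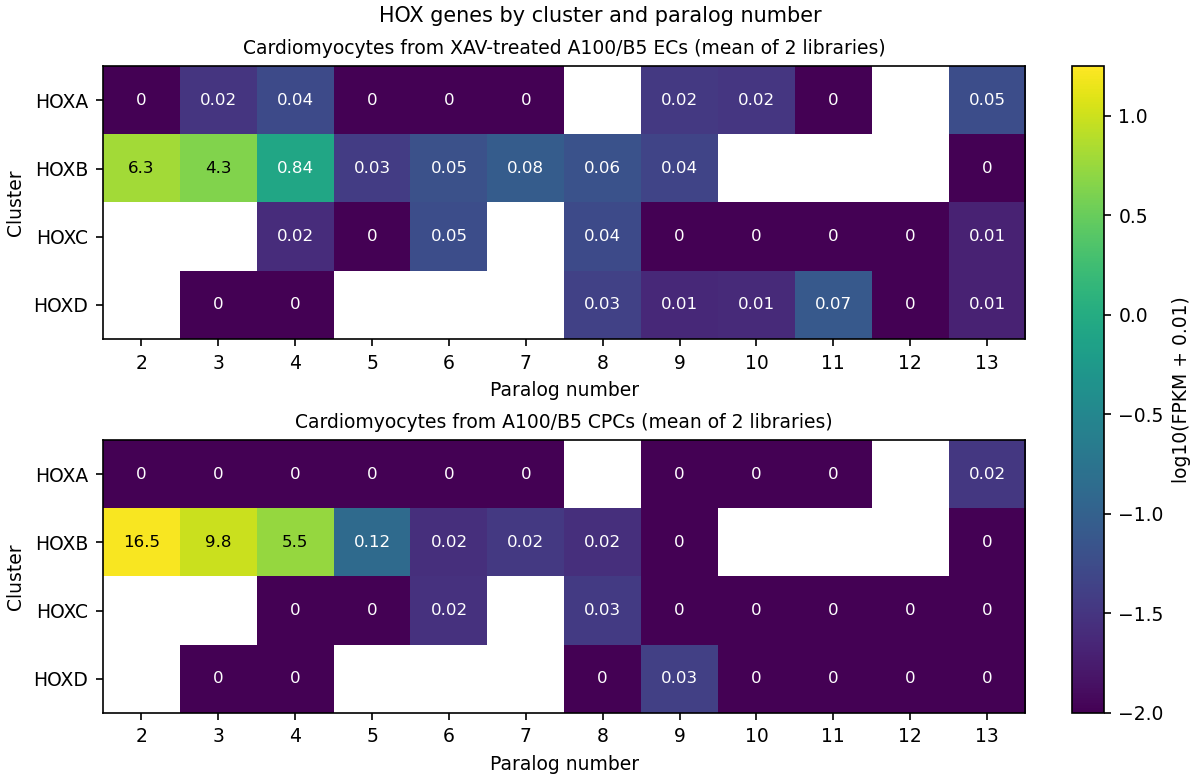
Mean FPKM of the HOX genes of paralog numbers 2 to 13 by cluster (rows) and paralog number (columns), in ECsXAV (top) and CPC (bottom) libraries, 2 libraries each, coloured as log10(FPKM + 0.01) with the mean printed; white squares have no gene. Only HOXB2, HOXB3 and, in CPC, HOXB4 have a mean over 1 FPKM.

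HOXB2 (chr17:46618256-46622471, minus strand) is known for its part in patterning the hindbrain. HOXB2 was at 4.61 and 7.92 FPKM in ECsXAV and at 17.9 and 15.0 FPKM in CPC. Both CPC libraries lay above both ECsXAV libraries, with means of 6.27 ± 2.34 and 16.5 ± 2.05 FPKM (SD, n = 2), and the ECsXAV libraries differed most from each other of the 3 genes. The difference on the log2(FPKM + 1) scale, CPC minus ECsXAV, was 1.30 (SE 0.25, 95% interval 0.66 to 1.95), with a limma adjusted p of 0.0765, which missed the criterion of an adjusted p under 0.05 with more than a 2-fold change.

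HOXB3 (chr17:46626232-46682274, minus strand), which acts next to HOXB2 in the hindbrain and pharyngeal region, was at 4.37 and 4.17 FPKM in ECsXAV and at 11.1 and 8.45 FPKM in CPC. The groups did not overlap, and the ratio of the means was 2.29. The difference was 1.02 (SE 0.16, 95% interval 0.62 to 1.42) with a limma adjusted p of 0.0492, just inside the criterion on both counts. The call was lost in 9 of 14 alternatives, and without any 1 of the 4 libraries its adjusted p was 0.0806 to 0.249. In the GENCODE annotation, the HOXB3 gene contains HOXB4 on the same strand and overlaps HOXB-AS1, HOXB-AS2 and HOXB-AS3 on the other. The FPKM rest on UCSC annotations, with 1 HOXB3 transcript. Whether reads of these genes were split between them was not tested.

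HOXB4 (chr17:46652869-46655712, minus strand), known for its part in blood stem cell expansion, was at 0.740 and 0.935 FPKM in ECsXAV and at 5.68 and 5.26 FPKM in CPC. Both ECsXAV libraries were under 1 FPKM and both CPC libraries over 5 FPKM, so the gene passed the filter on low values only through its CPC level. The ratio of the means was 6.53, and the difference on the log2(FPKM + 1) scale, which is narrower for low values, was 1.82 (SE 0.14, 95% interval 1.46 to 2.17) with a limma adjusted p of 0.0130. The adjusted p was 0.0841 without CPC replicate 1 and 0.0767 without CPC replicate 2. The makeup of the trio differed as well. HOXB4 gave 7.62% and 7.18% of the FPKM summed over HOXB2, HOXB3 and HOXB4 in ECsXAV and 16.4% and 18.3% in CPC, a gap larger than the spread within either group, while HOXB2 gave 47.5% and 60.8% in ECsXAV and 51.7% and 52.3% in CPC. These shares were not tested in a model, and an exact permutation test of 2 libraries against 2 cannot give a two-sided p below 0.333.

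**Figure D2:**
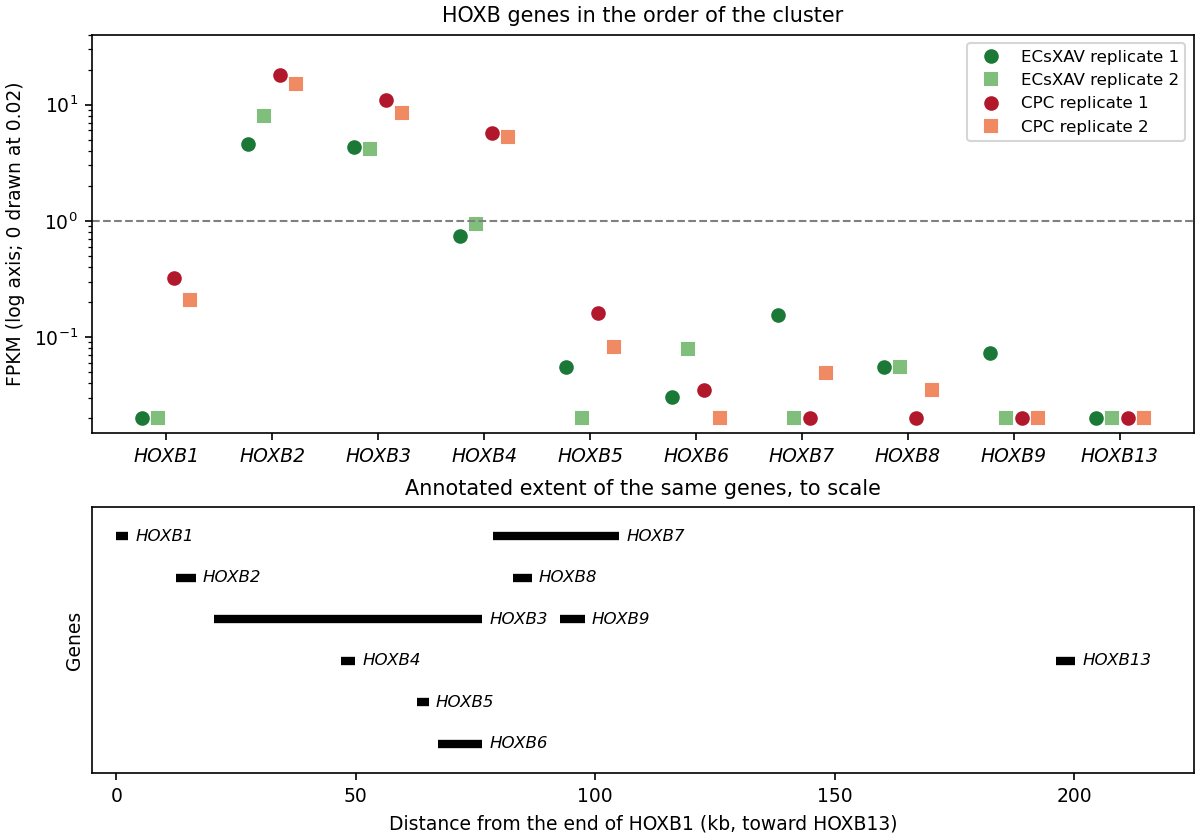
Top, FPKM (log axis, 0 drawn at 0.02, dashed line at 1) of each HOXB gene in each of the 4 libraries, in cluster order; bottom, the annotated extent of the genes to scale, in kb from the end of HOXB1. HOXB2, HOXB3 and HOXB4 stand over the other HOXB genes in all 4 libraries, and the step down lies between HOXB4 and HOXB5.

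The genes on both sides of the trio were low. HOXB1, which sits at the 3′ end of the cluster and marks early hindbrain and heart field cells, was listed at 0 in both ECsXAV libraries and at 0.320 and 0.209 FPKM in CPC. These 2 values stood in a ratio of 5 to 3 after scaling for depth, which is a few fragments. HOXB5, the next gene after HOXB4, was at 0.0558 and 0 FPKM in ECsXAV and at 0.161 and 0.0821 FPKM in CPC. HOXB6 to HOXB9 did not exceed 0.155 FPKM, and HOXB13, which lies apart from the rest, was listed at 0.

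Outside HOXB the highest HOX value was 0.143 FPKM for HOXD11, in 1 ECsXAV library, and that gene was listed at 0 in the other 3. Of the 36 HOX genes that never reached 1 FPKM, 17 and 10 were above 0 in the ECsXAV libraries and 6 and 7 in the CPC libraries. Of the 11 that were above 0 in at least 2 libraries, 9 had values in ratios of whole numbers no larger than 5, within 3%, after scaling for depth. None of the 36 passed the filter, and they were not tested between the groups. Summed, the HOX genes other than HOXB2, HOXB3 and HOXB4 came to 0.850 and 0.583 FPKM in ECsXAV and to 0.625 and 0.465 FPKM in CPC.

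The noncoding genes of the clusters gave no value of 1 FPKM. Of 18 in the table, 15 were listed at 0 in all libraries, the miRNA genes MIR10A and MIR196A1 among them, and poly-A libraries hold few such short RNAs. HOTAIRM1, an antisense RNA at the 3′ end of HOXA, was at 0.107 and 0.314 FPKM in ECsXAV and listed at 0 in CPC. HOXB-AS3, which lies antisense to HOXB3, HOXB4 and HOXB5, was at 0.194 FPKM in ECsXAV replicate 2 and at 0.155 FPKM in CPC replicate 2, and listed at 0 in the others. Of the genes that flank the clusters, 8 were tested and 0 met the criterion, with 1 at an unadjusted p under 0.05, beside 18.2% of all tested genes, and a median difference of 0.01. CALCOCO2, beyond the HOXB cluster, was at 8.12 and 8.01 FPKM in ECsXAV and at 11.8 and 11.3 FPKM in CPC, a difference of 0.47 with a limma adjusted p of 0.101.

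All 3 MEIS genes were expressed in every library. MEIS2 (chr15:37181405-37393500, minus strand), which acts in heart and limb development, was the highest of the 46 genes, at 53.6 and 54.4 FPKM in ECsXAV and at 115 and 99.8 FPKM in CPC. The groups did not overlap and the means were 54.0 ± 0.557 and 107 ± 10.4 FPKM (SD, n = 2). The difference was 0.97 (SE 0.12, 95% interval 0.66 to 1.29) with a limma adjusted p of 0.0345, so that it passed on the adjusted p but not on the 2-fold limit. MEIS1 (chr2:66660584-66801001, plus strand), which also acts in blood stem cells and in cardiomyocyte cell cycle exit, was at 12.7 and 12.0 FPKM in ECsXAV and at 18.2 and 16.0 FPKM in CPC. Its groups did not overlap, but the difference of 0.44 (SE 0.12) had a limma adjusted p of 0.144. MEIS3 (chr19:47906381-47922784, minus strand) was at 8.23 and 9.29 FPKM in ECsXAV and at 8.91 and 9.41 FPKM in CPC. These groups overlapped, with a difference of 0.06 (95% interval -0.24 to 0.36) and a limma adjusted p of 0.844. MEIS2 gave 71.9% of the summed MEIS FPKM in each ECsXAV library and 80.9% and 79.7% in CPC.

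Of the PBX genes, PBX2 and PBX3 were expressed in every library and PBX4 did not reach 1 FPKM. PBX3 (chr9:128509624-128729656, plus strand) was at 14.6 and 16.7 FPKM in ECsXAV and at 37.9 and 34.7 FPKM in CPC. Both CPC libraries were above both ECsXAV libraries, with a ratio of the means of 2.32. The difference was 1.17 (SE 0.12, 95% interval 0.85 to 1.48) with a limma adjusted p of 0.0252, and without any 1 library the adjusted p was 0.0944 to 0.104.

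PBX2 (chr6:32152510-32157979, minus strand) was at 25.7 and 26.1 FPKM in ECsXAV and at 34.4 and 34.2 FPKM in CPC, a difference of 0.39 (95% interval 0.14 to 0.65) with a limma adjusted p of 0.132. The table lists PBX2 at 7 loci, of which 1 had values above 0. PBX4 (chr19:19672516-19729502, minus strand) was at 0.665 and 0.472 FPKM in ECsXAV and at 0.911 and 0.754 FPKM in CPC, below the filter, and was not tested. PBX3 gave 20.4% and 22.8% of the summed PBX FPKM in ECsXAV and 32.9% and 33.5% in CPC.

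**Figure D3:**
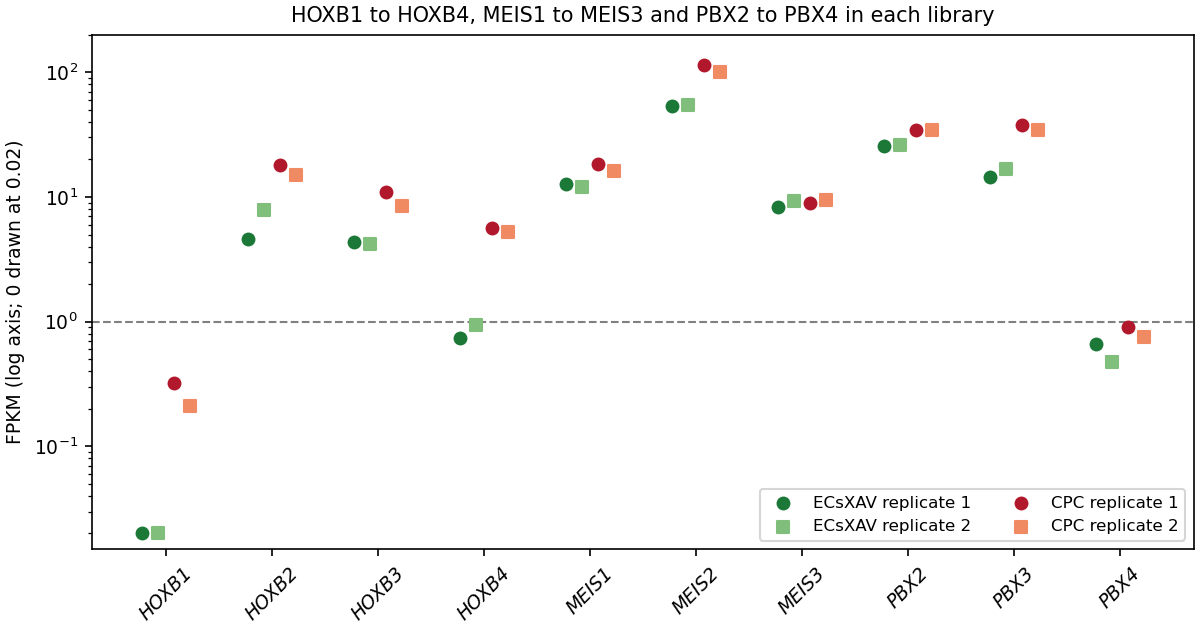
FPKM (log axis, 0 drawn at 0.02, dashed line at 1) of HOXB1 to HOXB4, MEIS1 to MEIS3 and PBX2 to PBX4 in each of the 4 libraries. MEIS2 is the highest of those drawn in every library, and the MEIS3 points of the groups overlap. HOXB1, at a few fragments in CPC, and PBX4, under 1 FPKM in every library, were not tested.

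MEIS and PBX transcripts outnumbered HOX transcripts per length in all libraries. Their summed FPKM was 13.8 and 10.9 times the summed HOX FPKM in ECsXAV and 7.28 and 7.83 times in CPC. The sums themselves were 146 and 149 FPKM against 10.6 and 13.6 FPKM in ECsXAV, and 257 and 229 FPKM against 35.3 and 29.2 FPKM in CPC.

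Of the 46 genes, 9 passed the filter of a mean of 1 FPKM and were tested, and HOXB3, HOXB4 and PBX3 met the criterion, all higher in CPC. Of the 12398 genes tested, 2.15% met it and 0.71% met it with the higher level in CPC. The other 6, HOXB2, MEIS1, MEIS2, MEIS3 and PBX2 among them, did not. The tested 9 had a median difference of 0.97, and 9 of 9 were higher in CPC, beside a median of -0.0045 and 49.2% higher in CPC over all tested genes. HOXB4 is among the 9 only because of its CPC libraries. Without any 1 library, 0 or 1 of them met the criterion, and 59 to 159 genes did in place of 266.

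**Figure D4:**
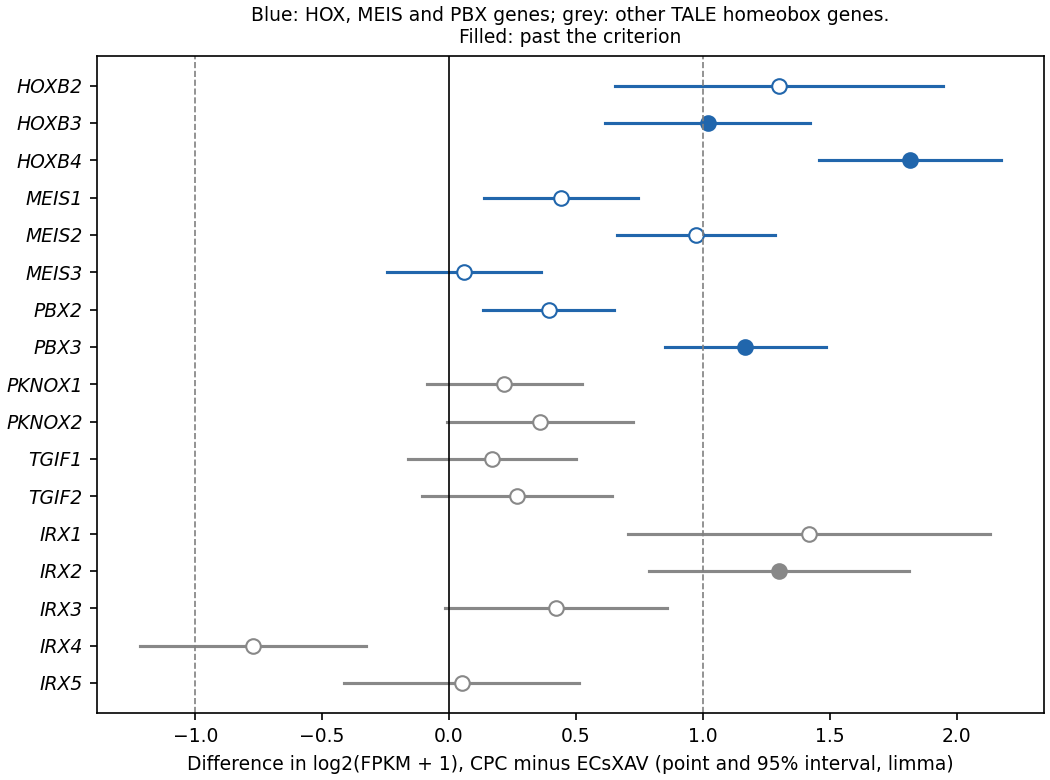
Difference in log2(FPKM + 1), CPC minus ECsXAV, with its 95% interval from limma, for 8 of the tested HOX, MEIS and PBX genes (blue) and 9 other TALE homeobox genes (grey); filled points met the criterion and dashed lines mark 2-fold. HOXB3, HOXB4, PBX3 and IRX2 are filled, and IRX4 lies on the ECsXAV side.

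The transcripts behind these values were given in a separate table. HOXB2, HOXB3, HOXB4 and MEIS1 had 1 transcript each. For PBX3, the noncoding transcript NR_024123 gave 18.1% and 13.9% of the FPKM in ECsXAV and 34.4% and 26.1% in CPC, and the coding transcript NM_006195 gave 67.9% and 86.1% against 54.7% and 70.7%. The groups overlapped for the coding share and not for the noncoding one. In FPKM both were higher in CPC, with NM_006195 at 9.89 and 14.4 in ECsXAV and at 20.7 and 24.5 in CPC. The 9 MEIS2 transcripts varied within a group. NM_170677 was at 9.78 and 0.0988 FPKM in the ECsXAV libraries, and NM_172315 at 31.9 and 47.5 FPKM in the CPC libraries. The PBX3 transcript NM_001134778 also varied within a group, at 2.03 and 0.0023 FPKM in ECsXAV and at 4.16 and 1.12 FPKM in CPC. Such shifts between replicates limit what the transcripts of MEIS2 and PBX3 can show. PBX4 was assigned to the coding NM_025245 in ECsXAV replicate 2 and to the noncoding NR_038198 in the other 3 libraries.

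**Figure D5:**
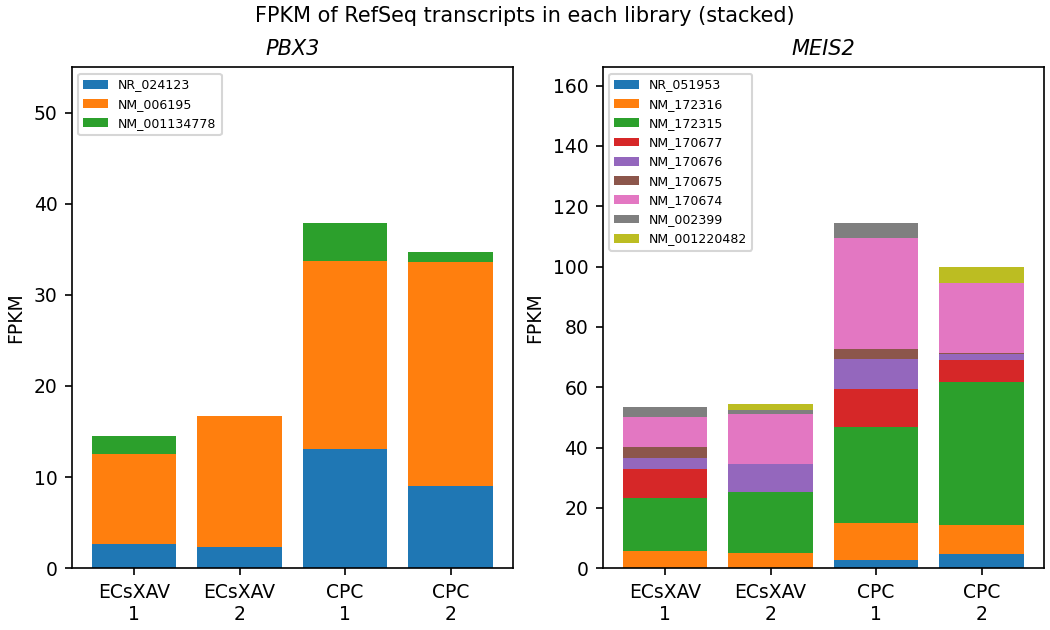
FPKM of the RefSeq transcripts of PBX3 and MEIS2 in each library, stacked (transcripts over 0.1 FPKM in at least 1 library). The bars of PBX3 and MEIS2 are taller in both CPC libraries, and the makeup of both genes differs between replicates.

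Among the relatives of MEIS and PBX, the other TALE homeobox genes, 9 of 11 were tested, with a median difference of 0.27. Of the 9, 1 was past the criterion, beside 2.15% of all tested genes. IRX2, an Iroquois gene, was at 2.56 and 3.73 FPKM in ECsXAV and at 10.3 and 8.09 FPKM in CPC, a difference of 1.30 with a limma adjusted p of 0.0486. The IRX2 call was lost in 8 of 14 alternatives, with adjusted p values of 0.0555 to 0.154. IRX4, a ventricular Iroquois gene, had the opposite sign, with 20.0 and 23.2 FPKM in ECsXAV and 10.5 and 14.1 FPKM in CPC, but its adjusted p in limma was 0.103. IRX3 was at 15.3 and 18.6 FPKM in ECsXAV and at 20.3 and 25.8 FPKM in CPC, with a limma adjusted p of 0.292. TGIF2 and TGIF1, repressors of the TALE class, differed by 0.27 and 0.17 with limma adjusted p values of 0.417 and 0.555.

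Of the ParaHox genes and other regulators of HOX genes, 16 of 20 were tested and 0 met the criterion in limma. Of the 16, 3 had an unadjusted limma p under 0.05, beside 18.2% of all tested genes, and the median difference was 0.10. CDX1 and CDX4, ParaHox genes that activate posterior HOX genes, were listed at 0, and CDX2 was at 0.0841 and 0.0839 FPKM in ECsXAV and listed at 0 in CPC. RXRG, a retinoid receptor, was at 84.7 and 84.5 FPKM in ECsXAV and at 140 and 165 FPKM in CPC, a difference of 0.84 with a limma adjusted p of 0.0492, under 2-fold. EZH2 and SUZ12, subunits of the Polycomb complex that silences HOX clusters, differed by -0.23 and -0.19 with limma adjusted p values of 0.416 and 0.641. RING1, of the other Polycomb complex, was at 19.2 and 20.4 FPKM in ECsXAV and at 25.5 and 27.1 FPKM in CPC, with a limma adjusted p of 0.149.

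Retinoic acid response genes were tested for 8 of 16, with a median difference of -0.05. Of the 8, 1 was past the criterion, beside 2.15% of all tested genes. CRABP2, which carries retinoic acid to its nuclear receptors, was at 56.2 and 59.6 FPKM in ECsXAV and at 147 and 163 FPKM in CPC, a difference of 1.40 with a limma adjusted p of 0.0158, which was 0.0657 to 0.0925 without any 1 library. TGM2 was at 89.6 and 103 FPKM in ECsXAV and at 71.2 and 67.7 FPKM in CPC, and the receptor gene RARB at 3.75 and 3.78 FPKM against 5.93 and 4.03 FPKM, with limma adjusted p values of 0.144 and 0.466. ALDH1A2, which makes retinoic acid, was at 0.0451 and 0.0600 FPKM in ECsXAV and at 0.294 and 0.207 FPKM in CPC, too low to be tested. Of the posterior second heart field and inflow genes, 6 of 13 were tested, with a median difference of -0.13, and 1 met the criterion, beside the same 2.15%. That gene was WNT2, a Wnt ligand of the inflow region, at 4.45 and 5.30 FPKM in ECsXAV and at 40.6 and 27.8 FPKM in CPC, a difference of 2.56 with a limma adjusted p of 0.0152, which was 0.0637 without CPC replicate 1. TBX5 and GATA6 differed by -0.32 and -0.19 with limma adjusted p values of 0.315 and 0.449.

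The summed levels of other cell types' markers differed between the groups for several lists, and their part in the HOX, MEIS and PBX values was not tested. Fibroblast markers, 8 genes, summed to 117 and 153 FPKM in ECsXAV and to 65.8 and 55.3 FPKM in CPC. Over all 12398 tested genes, 178 were past the criterion and higher in ECsXAV, and 88 were past it and higher in CPC. Of 5 fibroblast markers tested, 3 (COL1A1, COL3A1 and LUM) were past the criterion, higher in ECsXAV. The other 2, POSTN and PDGFRA, differed by 0.15 and 0.19, higher in CPC, with limma adjusted p values of 0.616 and 0.602. Paraxial mesoderm and skeletal muscle markers summed to 0.916 and 1.56 FPKM in ECsXAV and to 7.54 and 5.89 FPKM in CPC, of which UNCX alone made up 6.27 and 4.71 FPKM in CPC, while PAX7 and MYF5 were listed at 0. Liver and endoderm markers summed to 36.8 and 30.8 FPKM in ECsXAV and to 16.6 and 18.5 FPKM in CPC. Of 3 tested, AFP and TTR were past the criterion, higher in ECsXAV. APOA1, the largest of the list, was at 20.6 and 17.9 FPKM against 15.9 and 17.8 FPKM, with a limma adjusted p of 0.530. Neural markers summed to 3.98 and 3.79 FPKM against 1.10 and 0.963 FPKM. TUBB3, past the criterion, made up 3.69 and 3.39 FPKM of the ECsXAV sums. PAX6 and SOX2, all under 0.4 FPKM, lay higher in both CPC libraries, and SOX1 was listed at 0. LUM, AFP, TTR and TUBB3 were under 1 FPKM in both CPC libraries, so they passed the filter on low values only through ECsXAV. UNCX passed it only through CPC. Endothelial markers, 8 genes, summed to 12.7 and 11.4 FPKM in ECsXAV and to 14.3 and 11.1 FPKM in CPC. Of 3 tested, 0 met the criterion and 0 had an unadjusted limma p under 0.05, beside 2.15% and 18.2% of all tested genes. KDR made up 9.80 and 7.06 FPKM of the ECsXAV sums and 10.8 and 8.69 FPKM of the CPC sums. CDH5 was at 1.19 and 1.49 FPKM in ECsXAV and at 0.875 and 0.649 FPKM in CPC. TEK and VWF were also higher in both ECsXAV libraries, VWF at no more than 0.0209 FPKM. EMCN went the other way, at 0.731 and 0.964 FPKM in ECsXAV and at 1.79 and 0.975 FPKM in CPC. Blood markers summed to 2.59 and 5.58 FPKM in ECsXAV against 0.494 and 0.345 FPKM in CPC, with PTPRC listed at 0. HBE1 made up 2.13 and 4.55 FPKM of the ECsXAV sums and 0.338 and 0.184 FPKM of the CPC sums, with a limma adjusted p of 0.0660. Epicardial markers, led by TBX18 in ECsXAV and with ALDH1A2 higher in CPC, summed to 2.13 and 2.00 FPKM against 1.17 and 0.959 FPKM. Pluripotency markers summed to 2.07 and 2.98 FPKM against 2.86 and 1.95 FPKM, with NANOG listed at 0. The 10 cardiomyocyte markers summed to 15313 and 14746 FPKM in ECsXAV and to 13159 and 13827 FPKM in CPC. MYL7 made up 8786 and 8535 FPKM of the ECsXAV sums and 6701 and 7142 FPKM of the CPC sums, with a limma adjusted p of 0.491. MYH6 was past the criterion and higher in CPC, and MYH7 was past it and higher in ECsXAV.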

How the data were processed

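RNA was measured in 4 poly-A libraries of unsorted day 14 cultures, 2 per group, grouped by the source given in the labels. The deposited values are FPKM for genes and transcripts, which the authors computed with Cufflinks (version 2.1.1 in the methods) and UCSC gene annotations. The submitters' processing notes name TopHat 1.3.3, Cufflinks and hg19. The methods leave reads with several alignments out of the read counts, which were not used here. For the FPKM their handling is not given in the sources used here, and it could move FPKM of HOX paralogs and of PBX2. A symbol with several loci was taken at its highest locus.

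Differences were fitted on log2(FPKM + 1) with limma 3.58.1 (R 4.3.3) and a variance trend over 12398 genes with a mean of at least 1 FPKM, with Benjamini-Hochberg adjustment. The criterion was an adjusted p under 0.05 and over 2-fold. P-values rest on the spread between 2 cultures per group, which limma draws toward a trend over all tested genes. No spread beyond these cultures is measured. The fit was tested on simulated data. Relative depth came from ratios of FPKM between 0.005 and 0.1. Coordinates are from GENCODE release 44 on GRCh37, the build of hg19. Some items are not reported here. Otherwise members reaching 1 FPKM in any library were named, and of the lists the genes past the criterion and up to 4 others of highest mean. HOXB1, HOXB5, HOXD11, MIR10A, MIR196A1, the CDX genes, CALCOCO2, EZH2, SUZ12, RARB, ALDH1A2 and single marker genes below the criterion fall outside this rule and were named after their values were seen. Members and lists were chosen with earlier results of these data known. The alternatives were other pseudocounts, filters, scalings, locus or transcript sums, the replicate number as a block and leaving out each library.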

Additional observations from a re-analysis of the deposited data

How the results depend on the processing

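The direction of the 9 tested HOX, MEIS and PBX genes was kept in all 14 alternative fits that tested them, except that MEIS3 had a difference of -0.019 without ECsXAV replicate 1 and, over the libraries left out, up to 0.14. Of these genes 3 met the criterion, and 266 of all genes did. With no filter on low values 0 of them and 20 genes met it (HOXB4 had the smallest adjusted p of the 3, 0.0570), and with a mean of at least 5 FPKM 1 (PBX3) and 152 did. Quantile normalization exchanged HOXB3 for MEIS2, fits without the trend or with the block lost HOXB3, and leaving out short RNA genes added HOXB2 (adjusted p 0.00818). Leaving out 1 library, where the lone library is assumed to vary like the other group, gave 0 to 1 members and 59 to 159 genes: 1 and 159 without ECsXAV replicate 1, 1 and 127 without ECsXAV replicate 2, 0 and 59 without CPC replicate 1, and 0 and 85 without CPC replicate 2. The IRX2 and CRABP2 calls were lost without any 1 library and the WNT2 call without CPC replicate 1, all 3 with no filter, and IRX2 also with a mean of at least 5 FPKM (0.0675) and quantile normalization (0.0555). Under a replicate block, 176 genes and 2 of these genes (HOXB4 and PBX3) met the criterion, and the IRX2, COL1A1, COL3A1, TTR, TUBB3 and MYH6 calls were lost as well (adjusted p 0.0506 to 0.0835). Deviations of same-numbered libraries had a Spearman correlation of 0.36 and a Pearson correlation of 0.03 over genes (0.38 and 0.19 without short RNA genes), and with 2 pairs and no label naming a shared batch the numbers are not shown to pair the cultures. Restricting the cluster shares to HOX genes with a mean of at least 1 FPKM made the HOXB share 100% and the HOXA, HOXC and HOXD shares 0% in both groups, by construction. The cause of the other changes was not tested. ECsXAV replicate 2, at 50.1% of the depth of ECsXAV replicate 1, limits the values below 0.1 FPKM most.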
